A study of Mus musculus with 7 samples.

Results

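The genes described here are 10 regulators of cell death and survival, from the BCL2 family, the FAS pathway and BFAR. Their data are the rows that carry their names in 1 deposited list of accessible sites. The set holds 4 survival genes (Bcl2, Bcl2l1, Mcl1 and Bfar) and 6 death genes (Bcl2l11, Bax, Bak1, Bbc3, Fas and Fasl). Of the 10, 6 had a row, with 9 peaks in all, out of 6395 listed peaks. The set was chosen by rows and values of this same list, so everything given for the named peaks is a description and carries no test.

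The list came from ATAC-seq, an assay that tags open chromatin with a transposase, on splenic T follicular helper (Tfh) cells, a CD4 T cell subset of the germinal centre that gives help to B cells. All mice were B6.Sle1.Yaa and 5 months old, a strain that carries the Sle1 lupus susceptibility locus and the Yaa autoimmune accelerator. There were 4 samples from mice that had received anti-IFNA1, as the treatment label spells the antibody that the series title calls IFNAR1 blockade, and 3 samples from mice that had received anti-rat IgG. Both were given 2 times a week for 4 weeks. The sort was for CD4+CD44+ cells without GITR, low in PSGL-1 and high in both CXCR5 and PD-1, and the labels do not say whether a sample was 1 mouse or a pool. The antibody against IFNAR1, a chain of the type I interferon receptor, is written anti-IFNAR1 from here on, and the other group control IgG.

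Apoptosis through mitochondria is decided by the BCL2 family. BCL2, BCL-XL (from Bcl2l1) and MCL1 hold BAX and BAK in check, BH3-only proteins such as BIM (from Bcl2l11) and PUMA (from Bbc3) release that block, and BAX and BAK then open the outer mitochondrial membrane. FAS and its ligand start a second route at the cell surface, through caspase-8, and FAS limits autoreactive lymphocytes in mice and humans. BFAR is a ubiquitin ligase of the endoplasmic reticulum that, in human cells, binds BCL2 family proteins and caspase-8 and protects against both routes.

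Every listed peak had more coverage under anti-IFNAR1 than under control IgG, since the list holds that direction alone. Sites that were higher in control IgG mice, and values of single samples, were not analysed here, so no spread between mice stands behind any value below. Fragments of anti-IFNAR1 outnumbered those of control IgG by 3.54 to 1, where equal depth per library would give 1.33. The share of this depth gap in any fold was not tested. All pileups, folds and q values are the authors' own, from their caller. More open cells and more accessibility per cell cannot be told apart in such bulk samples. Of 12 Tfh and CD4 T cell markers 8 were listed, Cd4, Bcl6 and Pdcd1 among them, without Cd44, Cxcr5, Icos and Il21. None of 8 markers of B cells, CD8 T cells, NK cells, myeloid cells or regulatory T cells was listed. Over all protein-coding genes the listed share was 21.1%, and 7 of 12 common reference genes were listed. The list holds 1 direction alone, so a marker without a row may still be open, and which cells were present was not tested.

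The promoter windows of the members whose RefSeq start lay inside a listed peak are shown first, because they are the start sites that the peaks reach. The peaks cover 142 of the 300 bases in Bfar, 128 in Bcl2, 260 in Bcl2l1 and 276 in Bax, and all 300 in both Bbc3 windows, which overlap each other. Each is a RefSeq window of the build GRCm38.p6, from 250 bases before to 50 after a start site, on the gene's own strand and 5′ to 3′. Capitals mark matches on either strand to 8 motifs: FOXO (TGTTTAC), AP-1 (TGANTCA), STAT (TTCNNNGAA), an interferon-type repeat (TTTCNNTTTC), the GC box (GGGCGG), the CCAAT box (CCAAT), ETS (CCGGAA) and NRF1 (GCGCATGCG). NRF1 was added after the letters were seen.

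Bfar, chr16:13671608-13671907, plus strand: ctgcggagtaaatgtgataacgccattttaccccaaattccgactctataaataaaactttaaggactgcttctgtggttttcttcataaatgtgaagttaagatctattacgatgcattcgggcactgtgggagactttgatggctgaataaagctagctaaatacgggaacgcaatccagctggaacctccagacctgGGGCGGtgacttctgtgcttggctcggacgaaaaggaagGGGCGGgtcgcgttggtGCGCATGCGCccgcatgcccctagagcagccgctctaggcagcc

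Bcl2, chr1:106714241-106714540, minus strand: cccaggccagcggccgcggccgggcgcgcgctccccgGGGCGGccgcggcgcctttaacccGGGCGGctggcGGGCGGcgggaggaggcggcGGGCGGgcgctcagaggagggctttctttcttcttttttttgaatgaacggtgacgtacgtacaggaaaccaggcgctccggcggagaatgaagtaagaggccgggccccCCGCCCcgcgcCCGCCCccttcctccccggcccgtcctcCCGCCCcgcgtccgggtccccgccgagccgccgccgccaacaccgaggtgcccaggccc

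Bcl2l1, chr2:152830668-152830967, minus strand: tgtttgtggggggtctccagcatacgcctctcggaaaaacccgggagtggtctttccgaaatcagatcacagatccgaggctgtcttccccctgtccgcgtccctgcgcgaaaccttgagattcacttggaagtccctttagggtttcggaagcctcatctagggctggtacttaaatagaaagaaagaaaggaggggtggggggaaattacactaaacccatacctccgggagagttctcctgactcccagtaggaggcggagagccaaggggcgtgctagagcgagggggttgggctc

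Bbc3 (upstream window), chr7:16310011-16310310, plus strand: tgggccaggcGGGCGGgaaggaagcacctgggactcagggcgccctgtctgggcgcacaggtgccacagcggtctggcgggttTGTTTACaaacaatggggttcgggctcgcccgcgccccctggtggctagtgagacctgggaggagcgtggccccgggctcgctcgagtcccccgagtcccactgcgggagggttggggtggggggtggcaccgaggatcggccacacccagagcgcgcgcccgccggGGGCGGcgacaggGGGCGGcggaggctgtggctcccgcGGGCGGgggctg

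Bbc3 (downstream window), chr7:16310181-16310480, plus strand: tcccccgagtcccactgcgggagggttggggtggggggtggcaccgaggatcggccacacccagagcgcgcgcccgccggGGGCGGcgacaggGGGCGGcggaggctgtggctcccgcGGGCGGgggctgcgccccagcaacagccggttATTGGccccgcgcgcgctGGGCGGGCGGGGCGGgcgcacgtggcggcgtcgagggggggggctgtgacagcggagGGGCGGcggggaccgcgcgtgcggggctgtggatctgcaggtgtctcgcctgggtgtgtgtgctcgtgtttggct

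Bax, chr7:45466849-45467148, minus strand: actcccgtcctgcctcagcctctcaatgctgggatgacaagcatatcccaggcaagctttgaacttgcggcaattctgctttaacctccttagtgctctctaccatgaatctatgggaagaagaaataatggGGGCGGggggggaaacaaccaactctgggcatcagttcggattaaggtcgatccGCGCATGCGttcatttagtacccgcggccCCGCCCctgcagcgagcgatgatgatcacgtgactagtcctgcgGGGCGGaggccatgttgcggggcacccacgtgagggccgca

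The Bfar and Bax windows both hold the NRF1 letters, which occurred in 4.60% of the 4217 RefSeq promoter windows that met a listed peak and in 1.75% of all 32851 windows. In Bfar they stand as a palindrome that matches on both strands, from 6 to 15 bases after the start, and in Bax from 64 to 56 bases before it. The upstream Bbc3 window holds the only FOXO match among the 6 printed windows, 167 to 161 bases before the start, a motif found in 2.49% of windows in a listed peak and 3.65% of all windows. GC boxes stand in 5 of the printed windows, with 7 in Bcl2, 4 and 7 in the upstream and downstream Bbc3 windows, some of which overlap, 3 in Bax and 2 in Bfar. Of the 7 in Bcl2, 3 lie in the peak and 4 upstream of it, and all other matches in the printed windows lie in a listed peak. GC boxes occurred in 72.6% of windows in a listed peak and 35.7% of all windows. The downstream Bbc3 window also holds 1 CCAAT box, found in 39.5% of windows in a listed peak and 37.4% of all windows. The printed Bcl2l1 window holds none of the 8 motifs. Another Bcl2l1 window, not printed because its start lies outside the peak, has 20 bases in the peak and 1 ETS match there. ETS letters occurred in 31.7% of windows in a listed peak and 14.9% of all windows. No printed window holds the AP-1, STAT or interferon-type letters. They occurred in 4.01%, 5.19% and 2.28% of windows in a listed peak and 7.81%, 8.30% and 3.44% of all windows. G and C made up 76% of the Bcl2 window, 74.7% and 78% of the Bbc3 windows and 50.7% of the Bfar window, with a median of 63.3% over windows in a listed peak and 52.7% over all windows.

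Among the survival genes, Bfar had the peak with by far the smallest q of the set. It spanned chromosome 16 from 13671766 to 13672813 (mm10), over the gene's start, with its summit 387 bp into the gene (ENSMUSG00000022684). It held 72 anti-IFNAR1 fragments, against 0 control IgG fragments at the site and at most 1 in the surrounding 1 kb. The pileup, the fragment coverage at the summit scaled down for depth, was 20.4 over a background of 0.236, and the authors' deposited table gives it a fold of 17.3 (q = 4.23e-27). With 0 control fragments counted as 3 and the 72 taken as exact, the depth-scaled coverage was 6.78-fold higher on the anti-IFNAR1 side. This value leaves out the counting error of the 72, so it cannot be set beside the exact intervals given below for other peaks. By q this peak had rank 4 of the whole list, behind the Dtx4 start peak with a fold of 18.9 and ahead of the AY036118 peak with 3.25. Its fold stood at the 99.95th percentile of listed folds and its pileup at the 88.7th. The Bfar neighbour Parn had a listed peak at its own start, 3.83 kb upstream of Bfar, with 31 fragments over a background of 1 control fragment and a fold of 4.88.

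Bcl2, the founding antiapoptotic gene (ENSMUSG00000057329), had 2 peaks at the 5′ end of its long span. The start peak, on chromosome 1 from 106713502 to 106714368, held 56 anti-IFNAR1 fragments against 1 control IgG fragment at the site. The authors' deposited table gives a fold of 8.42 (q = 4.08e-10), with the summit 163 bp into the gene. The ratio at the site, scaled for depth and without the caller's pseudocount, was 15.8 with an exact 95% interval of 2.73 to 636, which covers counting error only. The second peak, from 106711938 to 106712912, was placed in coding exon 1, with the summit 1981 bp into the gene. It held 46 fragments over a background of 1.89, which matches 8 control fragments in the surrounding 1 kb. Its fold of 4.85 was close to the list median of 4.74. The 2 Bcl2 peaks thus had like coverage, 15.8 and 13.0 in pileup, over backgrounds of 1.00 and 1.89.

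Bcl2l1, which encodes BCL-XL (ENSMUSG00000007659), had 1 peak, on chromosome 2 from 152830708 to 152831698. There were 58 anti-IFNAR1 fragments at its summit over a control IgG background of 1.42, which matches 6 fragments in the surrounding 1 kb. The fold was 7.20 (q = 3.87e-09 in the authors' deposited table). RefSeq gives 3 starts in its promoter table for this gene, and the peak covered 1 of them, with the summit 405 bp upstream of it. Another start, at 152831728 on the minus strand, lay upstream of the peak, so the summit at 152831122 was inside the gene. Mcl1, the remaining survival gene, had no row.

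Among the death genes, Bbc3, the gene for the BH3-only protein PUMA (ENSMUSG00000002083), had the most peaks of any member, 3 on chromosome 7. The first, from 16309692 to 16310572, covered 2 of its 3 RefSeq starts and the whole of both printed windows. At its summit were 52 anti-IFNAR1 fragments over a control IgG background of 2.12, a fold of 5.03 (q = 2.48e-05 in the authors' deposited table). The second, from 16310834 to 16311373, was placed in a 5′ UTR exon and had the highest fold of any death gene, 8.02, from 65 fragments over a background of 1.42 (q = 4.60e-11). The third, from 16313174 to 16313878, lay at the start of a transcript listed in the file, 3296 bp past the nearest RefSeq start. It held 37 anti-IFNAR1 fragments against 2 control IgG fragments at the site and was the weakest member peak, at a fold of 3.82 (q = 0.00897). Its depth-scaled ratio at the site was 5.23 (exact 95% interval 1.35 to 44.8). The 3 Bbc3 peaks thus spanned folds from below to well above the list median within 4.2 kb.

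Bax, an effector of the mitochondrial route (ENSMUSG00000003873), had 1 peak over its start, on chromosome 7 from 45466243 to 45467124. Its summit had 26 anti-IFNAR1 fragments, the fewest of any member, against 0 control IgG fragments at the site. The background was the genome rate of 0.132, the lowest the caller used, so the fold of 7.38 was the highest that 26 fragments can give. With 0 control fragments counted as 3 and the 26 taken as exact, the ratio was 2.45-fold, again without the counting error of the 26. Its fold stood at the 91.4th percentile of the list and its pileup at the 21.6th. The other effector gene, Bak1 (ENSMUSG00000057789), had 45 fragments over a background of 2.12 on chromosome 17 from 27027740 to 27028574. Its fold of 4.39 (q = 0.000664 in the authors' deposited table) was below the list median. The file placed this peak at a start site, but it ended inside the gene, 53 bp short of the RefSeq start, and no base of the RefSeq promoter window lay in it.

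**Figure D1:**
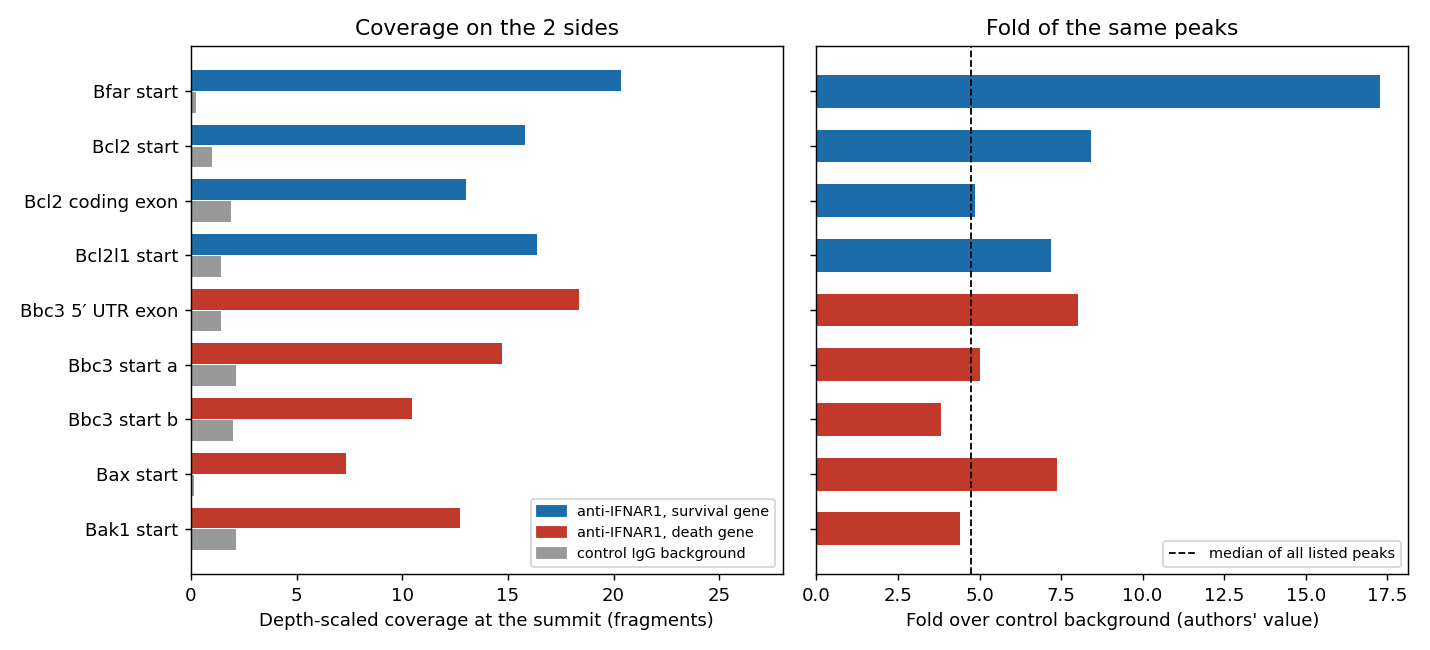
Coverage at the summit (left; anti-IFNAR1 pileup in colour above the control IgG background in grey, in depth-scaled fragments) and the authors' fold (right) for the 9 member peaks. Blue bars are survival genes and red bars death genes, and the dashed line is the median fold of all listed peaks, 4.74. Bbc3 start a and b are the first and the third Bbc3 peak of the text. The bars are single values without error, since no values per sample were analysed. Bfar pairs the highest coverage (20.4) with a background of 0.236, and Bax pairs the lowest coverage (7.35) with a background of 0.132.

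Set side by side, 3 of 4 survival genes and 3 of 6 death genes had a peak, where 21.1% of 21900 protein-coding genes had one. The rule used this list, and that background includes genes closed in T cells, so nothing is read from the count. Of 12 common reference genes, picked after the data were seen, 7 were listed, with folds of 3.06 to 5.09. The 4 survival peaks had a median fold of 7.81 and a range of 4.85 to 17.3. The 5 death peaks had a median of 5.03 and a range of 3.82 to 8.02, so the ranges overlapped. The median pileup was 16.1 over the survival peaks and 12.7 over the death peaks, against 11.6 over the list, and the median background was 1.21 and 2.00 fragments against 1.49. By the authors' section label, 3 of 4 survival peaks and 4 of 5 death peaks lay at a start site, against 72.4% of the list. Among these, the Bak1 peak and the third Bbc3 peak covered no RefSeq start.

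The size of the gap between survival and death genes moved with how peaks were counted. With 1 peak per gene, the one with the smallest q, the median fold was 8.42 for the survival genes and 7.38 for the death genes. Without Bfar the survival median was 7.20, and without Bbc3, an alternative chosen after the data were seen, the death median was 5.88. With a few peaks on each side and no values per sample, no difference between survival and death genes was tested. All 9 member peaks were at least as long as the list median of 539 bp, with lengths of 539 to 1047 bp.

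**Figure D2:**
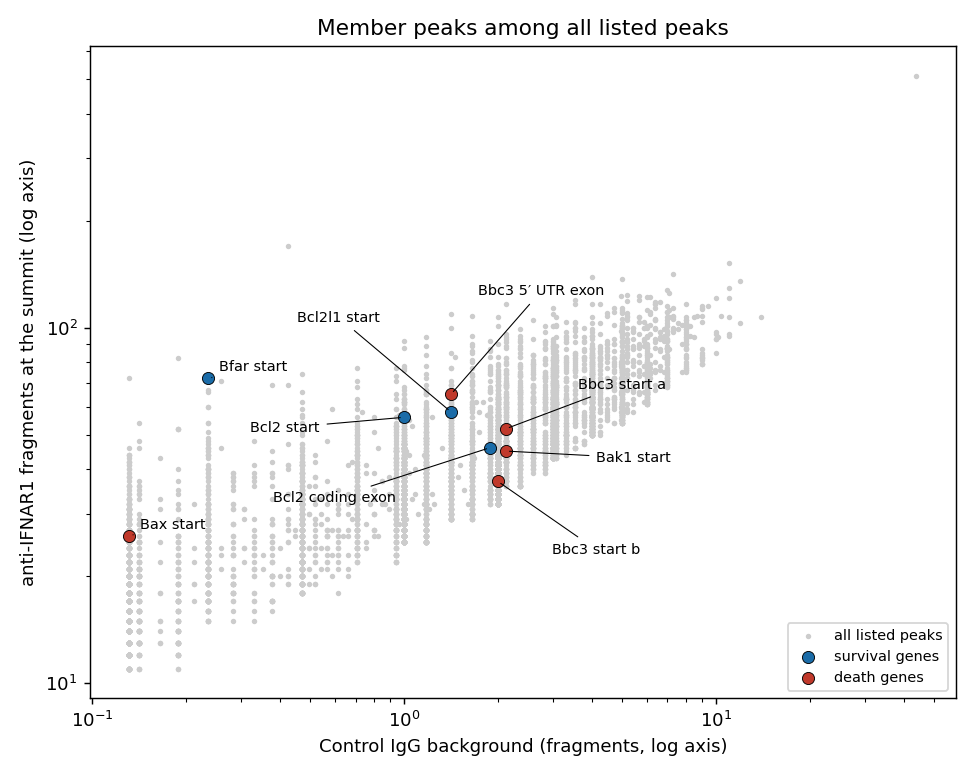
Anti-IFNAR1 fragments at the summit against the control IgG background for all 6395 listed peaks (grey) and the 9 member peaks (blue survival, red death), on log axes. The caller's threshold leaves the lower right empty. Bfar (72 fragments) lies near the top of the peaks with a background below 1, while Bak1 and the weaker Bbc3 peaks lie among many peaks of like background.

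The 4 members without a row differed in what lay around them. Over all protein-coding genes, 50.3% had a listed peak within 50 kb, a share added after the data were seen. Nothing is therefore read from a member having or lacking one. Mcl1, the short-lived antiapoptotic protein's gene on chromosome 3, had 2 intergenic peaks 9.68 and 11.4 kb past its end. They held 33 and 36 anti-IFNAR1 fragments over backgrounds of 0.944 and 1.00, with folds of 5.31 and 5.59 in the authors' deposited table, but lay nearer to Adamtsl4, at 3.35 and 1.65 kb. Fasl, which encodes the FAS ligand, had 3 intergenic peaks downstream on chromosome 1, and was the nearest protein-coding gene to each. The closest, 13.7 kb past the gene's end from 161766547 to 161767427, held 48 fragments over a background of 1.42 with a fold of 6.03. The next, 29.2 kb past it, held 21 fragments over the genome rate with a fold of 6.13, and the farthest, at 45.9 kb, held 22 with a fold of 4.90.

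Fas, the death receptor gene, had 1 intergenic peak with its summit 3.00 kb upstream, on chromosome 19 from 34287546 to 34287856. It was the weakest of these sites, with 17 anti-IFNAR1 fragments over a control IgG background of 0.378, and the authors' deposited table gives a fold of 4.21 (q = 0.0352), close to the largest q of the list, 0.0496. Bcl2l11, the gene for BIM, had no listed peak within 50 kb, and the nearest, at Gm14005, lay 267 kb away. Its upstream promoter window holds 1 FOXO match, on the reverse strand, as the upstream Bbc3 window does on the forward strand. That Bcl2l11 window also holds 3 GC boxes, 1 CCAAT box and 1 ETS match, and its downstream window 3 GC boxes and 2 CCAAT boxes. The Fas window holds 1 AP-1 match, 1 STAT match and 2 GC boxes. Mcl1 holds 2 ETS matches and 1 GC box, and Fasl 2 CCAAT boxes and 1 GC box. All of these matches lie outside listed peaks, and their role was not tested. Bbc3 also had an intergenic peak of its neighbourhood, 13.2 kb upstream and 8.35 kb from Ccdc9, from 16294533 to 16295568. That peak held 95 fragments over a background of 1.65, at a fold of 10.5 (q = 3.53e-18), more than any of the 3 peaks named for Bbc3. Which gene an intergenic peak acts on was not tested.

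**Figure D3:**
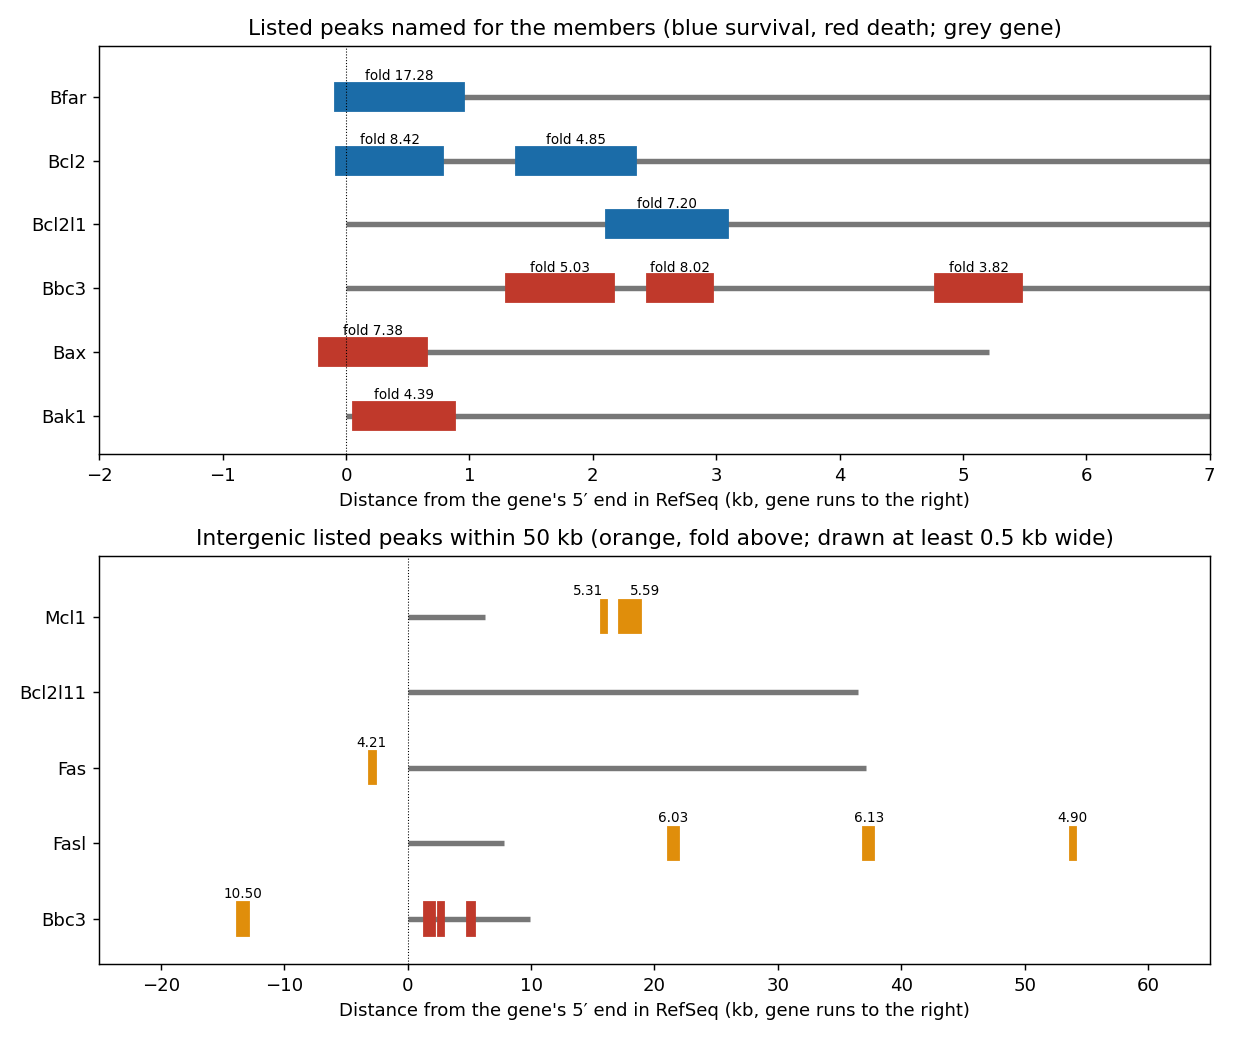
Listed peaks at the members, by distance in kb from the gene's 5′ end in RefSeq, with the gene in grey running to the right. The upper panel shows the 9 peaks named for a member with the authors' fold, and the lower panel the intergenic peaks within 50 kb of the 4 genes without a row and of Bbc3. Bcl2l11 has none, Fasl has 3 and Bbc3 has 1 of fold 10.5.

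The wider apoptosis machinery was listed in part. Of 66 further genes in 8 lists, 32 had a listed peak, with a median fold of 4.96 over 33 peaks against 4.74 over all listed peaks, and 30 of the 33 peaks lay at a start site. Over all protein-coding genes the listed share was 21.1%, and 7 of the 12 reference genes were listed, so nothing is read from the counts of these lists, which were picked with earlier results of the data known. None of the 6 other antiapoptotic BCL2 family genes was listed, namely Bcl2l2, Bcl2l10, Bcl2l12, Bcl2a1a, Bcl2a1b and Bcl2a1d. The last 3 are near-identical copies, and whether their shared reads were counted is not stated.

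Of 8 other BH3-only genes 4 were listed. Bad, which binds BCL2 and BCL-XL, had 95 anti-IFNAR1 fragments over a control IgG background of 4.01, a fold of 5.56. Bnip3l and Bnip3, which act in mitophagy, had folds of 3.98 and 5.89, and Pmaip1, the gene for the MCL1 antagonist NOXA, had 4.67. Of 4 other BCL2-like genes, Bcl2l15 had a fold of 6.77 and Bcl2l13 one of 3.42. None of these 6 genes reached the fold of the Bcl2 start peak, but that fold stood at the 95.7th percentile of the list. Nothing is read from this order.

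In the death receptor pathway 7 of 13 genes were listed. Cflar, the caspase-8 inhibitor gene, had the smallest q of these 7, with 54 fragments over a background of 1.18 and a fold of 7.46. Fadd, the adaptor of FAS, had the next by q, with a fold of 5.62. Casp8 itself was not listed. In the caspase cascade 7 of 13 were listed, with folds of 3.42 to 7.41, whereas Apaf1, the apoptosome scaffold gene, was not. Of 5 inhibitor of apoptosis genes 4 were listed, namely Birc5 with a fold of 6.81, Birc3 with 4.96, Xiap with 5.63 and Birc2 with 3.71. The Xiap fold rested on 19 fragments over the genome rate, as the Bax fold did on 26.

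Nearest to BFAR in place and role, 3 of 9 regulators at the endoplasmic reticulum or in death control were listed. Tmbim6, the gene for BAX inhibitor 1, had 93 anti-IFNAR1 fragments over a control IgG background of 2.36, a fold of 8.12 (q = 1.01e-14 in the authors' deposited table). Pdcd4, a translation inhibitor gene, had a fold of 5.93 and Bcap31, a membrane chaperone gene, 3.70. Of 8 upstream transcription factor genes 5 were listed. Foxo3, a known activator of Bbc3 and Bcl2l11, had folds of 6.68 at its start and 3.52 in a 5′ UTR exon, Rela 8.13, Foxo1 6.47, Nfkb1 5.91 and Trp53, which drives Bbc3 and Bax, 4.39. The Bfar fold of 17.3 exceeded every one of these 33 peaks, whose highest was 8.13 at Rela. Bfar and the lists were picked with earlier results of these data known, so nothing is read from that order.

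**Figure D4:**
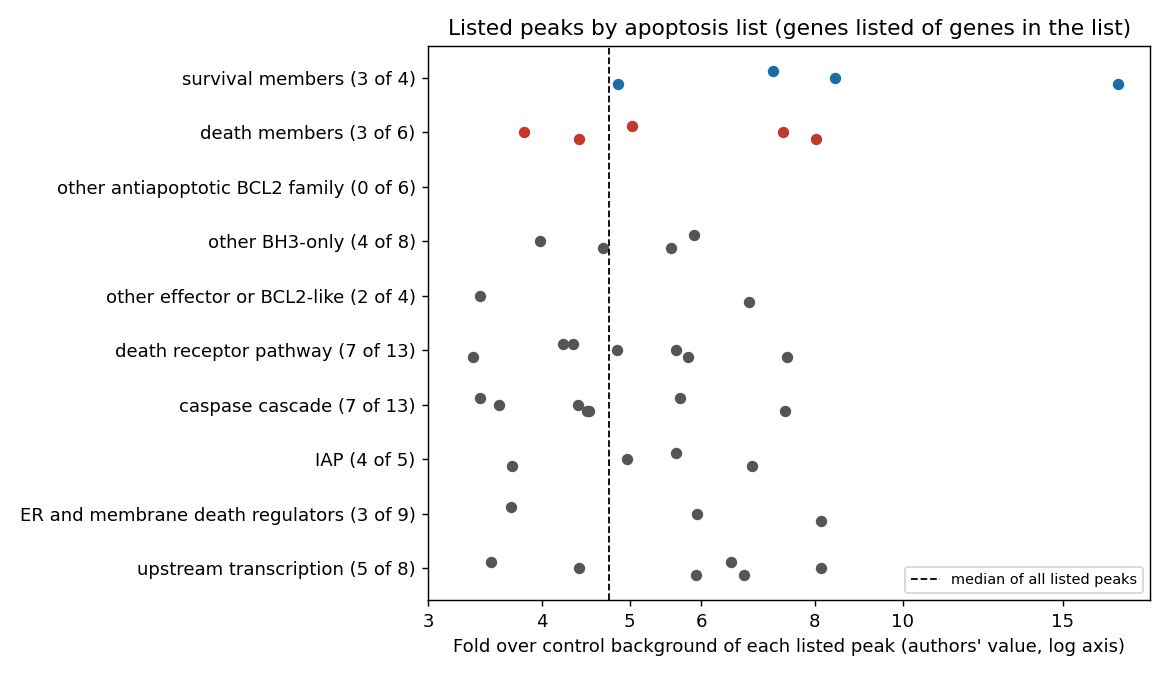
Fold over the control IgG background of each listed peak (authors' value, log axis) for the survival and death members and the 8 further apoptosis lists, with the number of genes listed of the genes in each list. The dashed line is the median of all listed peaks, 4.74. The list of other antiapoptotic BCL2 family genes has no point, and Bfar at 17.3 lies apart from all other points.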

How the data were processed

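The submitters' processing notes name build mm10, the aligner BWA (0.7.9a), the peak caller MACS2 (2.1.0.20150420), bedtools, DESeq2 and DiffBind (2.0.7), with no order. For the cut-site shift, duplicates and pooling, the sources used here state nothing. The authors' deposited table holds, per the file headers, the pileup signal and the fold, a ratio over control background. In 2 deposited columns with damaged headers the values fit a −log10 p and its −log10 q. A Poisson −log10 p recomputed from the other columns differed by at most 0.000125. No column carries a sample, so the comparison's direction was read from peak names and titles. Depth per sample is unknown.

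Every pileup was a whole multiple of 0.283 (tolerance 0.005), which gave fragments. The background followed from the fold and a pseudocount of 1. It came from the site, a 1 kb window, a 10 kb window or the genome rate, with fragments of 236 bp. A value that matches whole fragments in 1 kb also matches 10 times as many in 10 kb, and was read as 1 kb. A background below 1 means 0 control fragments at the site. These steps were run on simulated data made with the same formula and pseudocount. Such data cannot check the pseudocount or the reading of 1 kb over 10 kb. Intervals cover counting error only, and PCR copies are not independent molecules.

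Members and lists were chosen with earlier results of these data known. Every member peak is named, with the leading 2 peaks of each further list and every listed gene where 5 or fewer were. The leading peaks of the caspase list are not reported here. Genes were matched to RefSeq (GRCm38.p6) by symbol or synonym, all 66 further genes included. Positions of peaks follow the file, and whether they count from 0 or 1 is not stated. Promoter windows that overlapped on opposite strands were reverse complements in 1716 of 1716 pairs. Python 3.11.15, numpy 2.4.6, pandas 2.3.3 and scipy 1.17.1 were used.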

Additional observations from a re-analysis of the deposited data

How the results depend on the processing

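No paired analysis was possible because no column carries a sample, and leaving out single replicates was not possible for the same reason. The ratio without the pseudocount gave no median, since only 1 survival and 1 death peak had a known control count above 0 at the site. At a q of at most 0.01 all 9 member peaks and 6 genes were left, both medians held, and the share of protein-coding genes was 18.1% in place of 21.1%. With a pileup of at least 20 the Bfar peak alone was left (1 peak, 1 gene, survival median 17.3, no death peak), with 7 of the other apoptosis genes in place of 32 and 3.21% of protein-coding genes. Within 1 kb of a start site by the file's own distance the survival median was 8.42, the death median 4.71 and the share 19.6%. When any peak within 5 kb of the gene counted, 7 members had 12 peaks and the share was 29.1%. Within 50 kb 9 members had 23 peaks and 52 other apoptosis genes had one, as did 50.3% of protein-coding genes, a share added after the data were seen. One peak per gene gave medians of 8.42 (survival) and 7.38 (death). Without Bfar the survival median was 7.20. Chosen after the data were seen, a summit within 1 kb of a RefSeq start gave medians of 8.42 (survival) and 6.20 (death), leaving out Bbc3 gave a death median of 5.88, and adding the intergenic peaks near Mcl1 gave a survival median of 6.39. The survival median exceeded the death median in each of these settings that gave both, with 1 choice changed at a time. All settings drew on the same list that the rule used, so the shared order adds no support and was not tested. The caller's fold counts no noise in the few control fragments, 0 to 2 at the sites where they are known, and this limits every member's fold.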
